A study of Mus musculus with 4 samples.

Results

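The genes described here are 8 genes of antigen presentation on MHC class II: Ciita, H2-Aa, H2-Ab1, H2-Eb1, H2-DMa, H2-DMb1, Cd74 and Ctss. They were taken by symbol from the 17013 genes listed for each library, and all 8 were found. Bone marrow-derived macrophages from wild-type (WT) male C57BL/6 mice, grown in M-CSF, were kept for 24 h on Transwell inserts with artificial necrotic bone fluid (aNBF) in every culture. Con was the fat control medium, the middle layer of a preparation of freeze-thawed abdominal fat, and Fat was the high-fat-containing medium from its top layer. Each medium had 2 libraries of poly(A) RNA, of 33573852 and 37881292 reads in Con and 37534565 and 40785872 reads in Fat. The labels do not say whether the 2 libraries of a medium came from separate mice or cultures, so the spread between these libraries may be technical. The p-values rest on that spread, taken for each gene largely from that of all genes. The cells are a culture model, in which abdominal fat tissue killed by freezing and thawing supplied both media.

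MHC class II molecules display peptides from engulfed or endocytosed proteins to CD4 T cells. An alpha and a beta chain assemble in the endoplasmic reticulum with the invariant chain, which blocks the groove and directs the complex to endosomes. There, proteases trim the invariant chain to a short peptide, and the DM molecule exchanges that peptide for antigen. In macrophages these genes are induced by interferon gamma through the class II transactivator CIITA, which binds no DNA itself and acts through factors that sit on the X and Y boxes of the class II promoters. C57BL/6 mice carry a deletion in the promoter of H2-Ea, so that the product of H2-Eb1 lacks its usual alpha chain partner.

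In Fat, 7 of the 8 genes fell (limma, adjusted p under 0.05, all genes tested together), and Ctss did not pass the test. All 8 were above the lowest level tested, 0.5 CPM, in every library. Over all 12470 genes tested, 5.0% were called lower in Fat by the same rule. The median log2 fold change of the 8 genes was -0.85, against 0.01 for all genes tested. Both Fat libraries lay below both Con libraries for all 8 genes, which was so for 26.2% of the genes tested. Without Fat replicate 2, the library whose absence changed most, 6 of the 8 genes were called lower, against 2.51% of all genes. Without limma's mean-variance trend 0 of the 8 genes and 0.0962% of all genes were called lower, with adjusted p-values between 0.0831 and 0.191 for the 8 genes, while edgeR's quasi-likelihood test on the recovered reads called 7 lower (5.2% of all genes) and DESeq2 called 8 (5.22% of all genes). For a single gene, the smallest two-sided p of an exact permutation test on 4 libraries is 0.333.

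The promoter sequences are shown because the X and Y boxes are where CIITA is recruited. RefSeq windows of GRCm38.p6, from 250 bases before to 50 bases after a transcript start, were given for 5 of the 8 genes (H2-Aa, H2-Eb1, H2-DMa, H2-DMb1 and Ctss). The X core was searched as AGNAAC and the Y core as ATTGG, on both strands, and the ordered pair as X followed by Y on the same strand with 15 to 40 bases between them. H2-DMb1 and H2-Eb1 held this pair, and H2-Aa held it when the first letter of the X core was left free (NGNAAC), a change made after its sequence had been read. The stretches around these pairs follow, 5′ to 3′ along the gene, with the X and Y cores in capitals.
H2-Aa (chr17:34287847-34287925, minus strand): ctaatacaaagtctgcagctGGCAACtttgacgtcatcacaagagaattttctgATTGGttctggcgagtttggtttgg
H2-Eb1 (chr17:34305755-34305832, plus strand): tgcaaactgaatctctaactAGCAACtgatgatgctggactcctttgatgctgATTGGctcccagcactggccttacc
H2-DMb1 (chr17:34153076-34153154, plus strand): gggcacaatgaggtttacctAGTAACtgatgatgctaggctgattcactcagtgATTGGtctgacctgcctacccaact

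In these 3 genes the X core began 82, 92 and 95 bases before the transcript start of H2-Aa, H2-Eb1 and H2-DMb1, and 28, 27 and 28 bases separated it from the Y core. Of all 32851 promoter windows, 1.41% held the strict pair and 4.23% the relaxed one. The 2 windows of H2-DMa and the window of Ctss held neither form. The Ctss window held a match to the interferon response motif (GAAA, any 2 bases, GAAA), with the letters GAAACCGAAA, 21 bases before its start, and 3.44% of all windows held that motif. None of the windows given for the members held the gamma interferon activated site TTCNNNGAA, which was in 8.3% of all windows. A match describes letters in a window and is not evidence of binding. The labels name GRCm39 as the build of the reads, so these positions belong to the RefSeq windows and not to the expression values.

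Ciita encodes the transactivator itself and was the least abundant of the members. It was at 34.2 CPM (read counts scaled to library size by the authors) in Con replicate 1, 31.0 CPM in Con replicate 2, 16.6 CPM in Fat replicate 1 and 13.6 CPM in Fat replicate 2. Both Fat libraries were far below both Con libraries, and the lower Con value was 1.87 times the higher Fat value. Its means were 32.6 ± 2.28 CPM in Con and 15.1 ± 2.12 CPM in Fat (SD, n = 2 each). The log2 fold change (log2FC) of Fat over Con was -1.11 (standard error 0.11, 95% interval -1.36 to -0.86, limma adjusted p = 0.00339), a level 2.16-fold higher in Con than in Fat. Only 0.874% of the genes tested had a lower log2 fold change. Except where another setting is named, log2FCs are on the scale of log2(CPM + 0.1), which understates the change of genes at low levels.

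**Figure D1:**
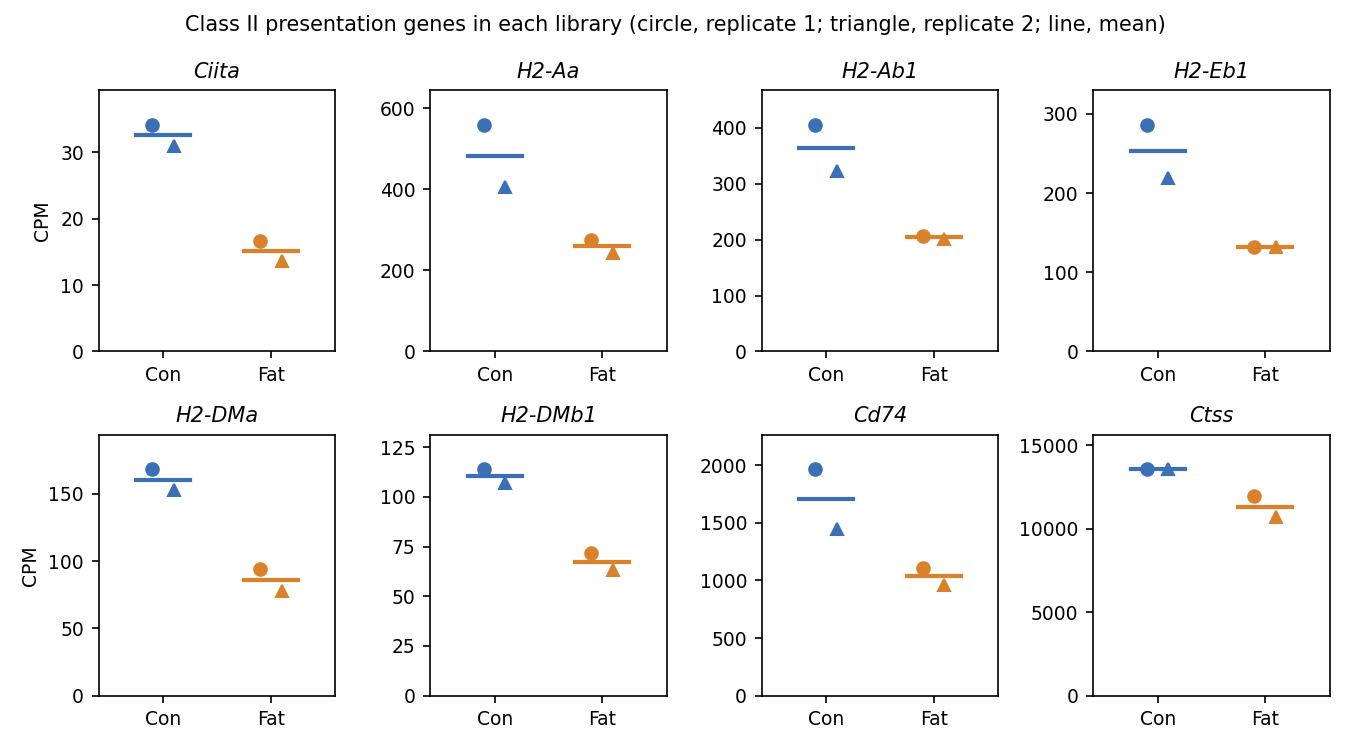
Level of each class II presentation gene in CPM (vertical axis, from 0) in Con and Fat, with a circle for replicate 1, a triangle for replicate 2 and a line for the mean of the 2 libraries. In all 8 panels both Fat libraries lie below both Con libraries, by the widest relative gap in Ciita (1.87 times) and the narrowest in Ctss (1.13 times).

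The 3 classical class II chains fell. H2-Aa, the alpha chain of I-A, was at 560.4 and 407 CPM in Con and at 276 and 244 CPM in Fat, in replicate order. H2-Ab1, its beta chain, was at 406 and 322 CPM in Con and at 207 and 201 CPM in Fat. H2-Eb1, the beta chain of I-E, was at 287 and 219 CPM in Con and at 132 and 131 CPM in Fat. For each of the 3 chains the Con libraries stood further apart than the Fat libraries, with Con replicate 1 the highest of the 4. The groups did not overlap, and the lower Con library exceeded the higher Fat library 1.47 times for H2-Aa, 1.56 times for H2-Ab1 and 1.66 times for H2-Eb1. H2-Aa had a log2FC of -0.88 (standard error 0.14, 95% interval -1.20 to -0.55, limma adjusted p = 0.0121). H2-Ab1 had one of -0.83 (standard error 0.10, 95% interval -1.06 to -0.59, adjusted p = 0.00528). H2-Eb1 had one of -0.93 (standard error 0.11, 95% interval -1.19 to -0.66, adjusted p = 0.00528). The intervals of the 3 chains overlapped each other and that of Ciita, and no test of a difference between genes was made. With Con replicate 1 left out, the log2FCs of the chains were nearest to 0, at -0.65, -0.66 and -0.73, with adjusted p-values of 0.00364, 0.00154 and 0.00117.

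The DM molecule, which catalyses peptide exchange in endosomes, is a pair of H2-DMa and H2-DMb chains. H2-DMa was at 169 and 153 CPM in Con and at 94.0 and 78.1 CPM in Fat. H2-DMb1 was at 114 and 107 CPM in Con and at 71.6 and 63.2 CPM in Fat. Replicates of both genes lay close together next to the gap between the media. H2-DMa had a log2FC of -0.90 (standard error 0.09, 95% interval -1.12 to -0.69, limma adjusted p = 0.00357) and H2-DMb1 one of -0.72 (standard error 0.07, 95% interval -0.89 to -0.54, adjusted p = 0.00354). H2-DMb1 and its neighbour H2-DMb2 are near copies: 46.9% of the 75-base stretches of H2-DMb1 transcripts in GENCODE vM21 were also found in H2-DMb2 with up to 2 mismatches. H2-DMb2 was listed at between 1.13 and 2.16 CPM in the 4 libraries. How shared reads were counted is not known, so the value of H2-DMb1 may hold reads of both and is uncertain to that extent. In turn, 46.5% of the stretches of H2-DMb2 were also found in other genes, H2-DMb1 among them, so its value is uncertain too. Of the other members, H2-DMa shared 6.29% of its stretches with the overlapping gene Brd2 and Ciita 0.388% with Dexi, and the remaining 5 shared 0%.

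Cd74 encodes the invariant chain and was the most abundant member after Ctss. It was at 1968 and 1449 CPM in Con and at 1111 and 964 CPM in Fat, with means of 1709 ± 367 and 1037 ± 104 CPM (SD, n = 2 each). The media did not overlap, but the Con libraries differed from each other 1.36 times, a wider gap than that from the lower Con to the higher Fat library. The log2FC was -0.71 (standard error 0.14, 95% interval -1.04 to -0.37, limma adjusted p = 0.0255). This call was lost without Fat replicate 2 (log2FC -0.60, adjusted p = 0.0771) and with the TPM values, which are also scaled for gene length (-0.67, adjusted p = 0.0676).

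Ctss encodes cathepsin S, the protease that makes the last cuts in the invariant chain in macrophages and dendritic cells. It was at 13582 and 13563 CPM in Con and at 11979 and 10666 CPM in Fat. Both Con libraries were nearly equal and both Fat libraries lay below them, the lower Con library at 1.13 times the higher Fat library. The log2FC was -0.26 (standard error 0.14, 95% interval -0.60 to 0.07, limma adjusted p = 0.31), so it did not pass the test, and the interval includes a level 1.51-fold higher in Con. DESeq2 on the recovered reads called it lower (log2FC -0.27, adjusted p = 0.0119), and edgeR's quasi-likelihood test did not (-0.27, adjusted p = 0.199). With 437273 to 508813 reads on this gene in each library, read counting did not limit its precision.

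**Figure D2:**
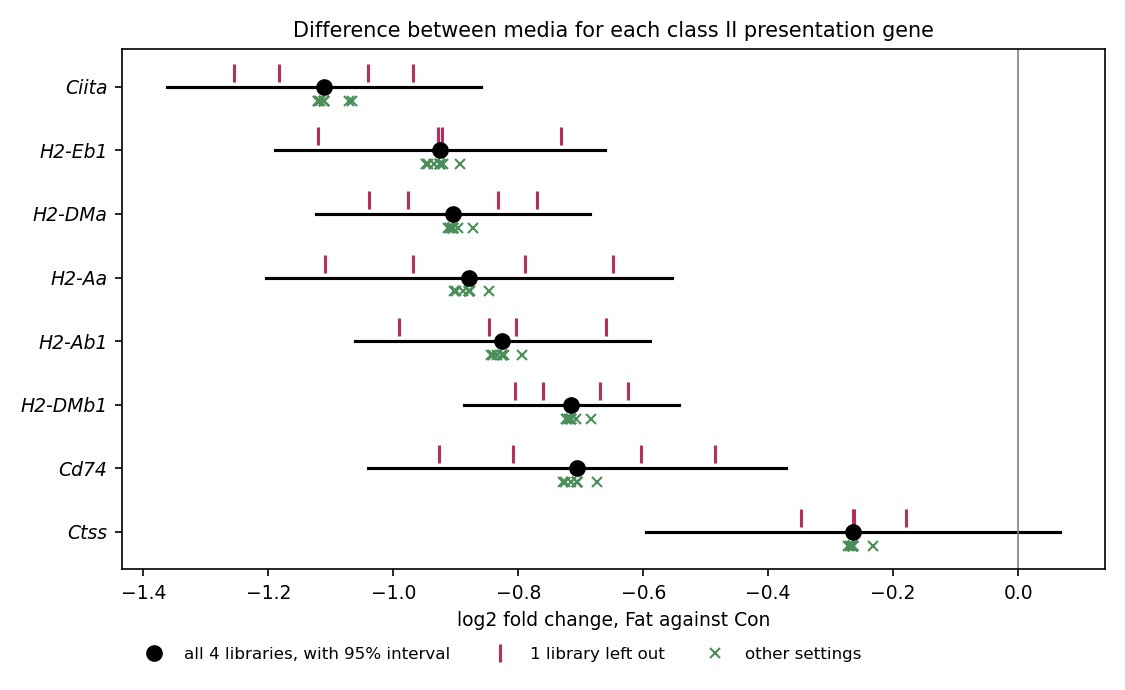
Log2 fold change of Fat against Con for each member (horizontal axis), with the 4-library estimate and its 95% interval as a black point and line, estimates with 1 library left out as red ticks and those of the other settings as green crosses. Every estimate lies below 0, and the interval of Ctss (-0.60 to 0.07) is the one that reaches 0.

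Levels of different genes were compared in TPM, which is scaled for gene length. In every library the order was Ctss, Cd74, H2-Aa, H2-Ab1, H2-Eb1, H2-DMa or H2-DMb1, and Ciita last. Ctss was between the 2nd and the 5th most abundant gene of the whole list in all 4 libraries, at 21850 and 21399 TPM in Con and 19522 and 17366 TPM in Fat. Cd74 ranked 32nd and 43rd in Con and 58th and 66th in Fat. H2-Aa moved from ranks 92 and 129 in Con to 202 and 234 in Fat. Ciita, at 13.1 and 11.7 TPM in Con and 6.46 and 5.28 TPM in Fat, ranked between 7071 and 9401 in the 4 libraries. The 7 members other than Ctss together held 0.574% and 0.426% of the TPM of Con replicates 1 and 2 and 0.313% and 0.278% of that of Fat replicates 1 and 2.

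Ratios between members within a library are also in TPM. The TPM of H2-Aa was 1.54 and 1.41 times that of H2-Ab1 in Con and 1.49 and 1.35 times in Fat, so that the media overlapped. The ratio of H2-DMa to H2-DMb1 was 1.14 and 1.10 in Con and 1.02 and 0.956 in Fat, slightly lower in both Fat libraries. There were 2.65 and 2.69 times as many Cd74 as H2-Aa transcripts by TPM in Con, and 3.04 and 2.98 times as many in Fat. The ratio of Ctss to Cd74 was 7.18 and 9.74 in Con and 11.2 and 11.5 in Fat, higher in both Fat libraries. The ratio of H2-Aa to Ciita was 87.3 and 70.0 in Con and 88.7 and 95.6 in Fat, higher in both Fat libraries. These ratios are descriptions over 4 libraries, for which no test was run.

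The library numbered 1 was higher than the library numbered 2 in each medium for all 8 members. Centred on its own mean over the 4 libraries, the median member stood at 0.58 and 0.26 on the log2 scale in Con replicates 1 and 2 and at -0.33 and -0.46 in Fat replicates 1 and 2. H2-Ab1 lay closest to this profile, with a root mean square distance of 0.03, and Ctss farthest, at 0.30. Of the other genes tested, the 5 with the most similar profile over these 4 libraries were Fcrl5 (distance 0.04), Ipcef1 (0.05), Fanca (0.05), Gimap5 (0.06) and Rarb (0.06). Of these, Ipcef1 and Fanca were called lower in Fat (log2FCs -0.74 and -0.83, limma adjusted p = 0.026 and 0.00553). The 5 genes were picked by a profile that is itself lower in Fat, so their direction was set by the choice and is not a separate result. Fcrl5, Gimap5 and Rarb were low-level genes, with means of 0.931, 0.845 and 0.817 CPM in Con.

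The remaining genes of the class II route were counted by the same rule, and their 2 calls are too few to set the list apart from all genes. Of the 26 tested, 2 were called lower and 0 higher in Fat by limma (7 lower and 1 higher at an unadjusted p under 0.05), against 5.0% lower and 3.99% higher of all genes tested (12.4% and 11.8% unadjusted), and their median log2FC was -0.06. Those called lower were March1, a ubiquitin ligase that removes class II from the cell surface, and Cd83, which opposes it. March1 was at 196 and 174 CPM in Con and at 141 and 132 CPM in Fat (log2FC -0.43, standard error 0.07, limma adjusted p = 0.0144). Cd83 was at 42.4 and 40.9 CPM in Con and at 32.7 and 35.7 CPM in Fat (log2FC -0.28, adjusted p = 0.0464). The call of March1 held without each single library, whereas that of Cd83 was lost without any one of them (Con replicate 1, Con replicate 2, Fat replicate 1 or Fat replicate 2, with adjusted p = 0.155, 0.0657, 0.182 and 0.0639). The number of the 26 genes called lower was 1 without Con replicate 1, Fat replicate 1 or Fat replicate 2.

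None of the other chains of the class II family was called by limma, and all were at low levels. H2-DMb2 had a log2FC of -0.74 (adjusted p = 0.0624), H2-Oa one of -0.39 (adjusted p = 0.528), H2-Eb2 one of -0.20 (adjusted p = 0.692) and H2-Ob one of -0.16 (adjusted p = 0.663). At an unadjusted p under 0.05, 1 of these 4 was lower and 0 were higher, against 12.4% and 11.8% of all genes tested. The value of H2-DMb2 may hold reads of H2-DMb1. H2-Oa and H2-Ob encode the DO molecule, which inhibits DM and is chiefly known from B cells. H2-Ob had 131 and 144 reads in Con and 106 and 170 reads in Fat, so that the media overlapped, and at this depth an interval from -0.61 to 0.29 was left for its log2FC. The promoter window of H2-DMb2 held neither the strict nor the relaxed X and Y pair. Those of H2-Oa, H2-Ob and H2-Eb2 held the strict pair, and they are shown for comparison with those of the chains that fell.
H2-Oa (chr17:34092282-34092360, plus strand): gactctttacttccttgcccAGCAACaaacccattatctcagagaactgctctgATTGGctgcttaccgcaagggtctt
H2-Ob (chr17:34238797-34238872, plus strand): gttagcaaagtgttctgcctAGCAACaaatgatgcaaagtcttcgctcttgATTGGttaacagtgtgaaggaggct
H2-Eb2 (chr17:34325522-34325599, plus strand): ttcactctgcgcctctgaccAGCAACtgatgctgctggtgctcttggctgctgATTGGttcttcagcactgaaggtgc

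Among 10 other endolysosomal genes of the route, 0 were called in either direction by limma, with a median log2FC of -0.03. At an unadjusted p under 0.05, 3 were lower and 1 was higher, against 12.4% and 11.8% of all genes tested. By the adjusted rule, 5.0% of all genes were lower and 3.99% higher. Ctsl, the cathepsin L gene, had the highest value, 0.35 (adjusted p = 0.15), at 7082 and 8092 CPM in Con and 9693 and 9575 CPM in Fat, higher in both Fat libraries. Sppl2a, whose protease clears the last fragment of the invariant chain, had the lowest, -0.27 (adjusted p = 0.0731), at 393 and 353 CPM in Con and 325 and 295 CPM in Fat. Lgmn, an asparaginyl endopeptidase, was at 1473 ± 19.6 CPM in Con and 1495 ± 13.7 CPM in Fat (SD, n = 2 each), and Ifi30, the thiol reductase GILT, at 297 ± 26.7 and 316.0 ± 11.6 CPM. Ctsd, Ctsb, Ctsz and Cst3, further cathepsins and the inhibitor cystatin C, had log2FCs of -0.09, -0.12, -0.20 and 0.12. For Lgmn and Ifi30 the 95% intervals of the log2FC were -0.14 to 0.18 and -0.08 to 0.26.

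The factors that occupy the X and Y boxes also had 0 calls among 7 genes (1 lower and 0 higher at an unadjusted p under 0.05), with a median log2FC of 0.03. Rfx5, the DNA-binding subunit of the RFX complex, was at 14.2 ± 0.989 CPM in Con and at 11.8 ± 0.190 CPM in Fat (SD, n = 2 each), lower in both Fat libraries (log2FC -0.25, limma adjusted p = 0.136). The other RFX subunits, Rfxap and Rfxank, had log2FCs of 0.05 and 0.03 (adjusted p = 0.817 and 0.901). Creb1, the X2 box factor, was at 61.0 ± 3.73 CPM in Con and 61.4 ± 0.314 CPM in Fat, and the NF-Y genes Nfya, Nfyb and Nfyc had log2FCs between 0.01 and 0.11.

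Genes acting on Ciita were lower in part. Of 17 tested, 7 were called lower and 0 higher in Fat by limma (9 lower and 1 higher at an unadjusted p under 0.05). Of all genes tested, 5.0% were called lower and 3.99% higher (12.4% and 11.8% unadjusted). The median log2FC of the 17 genes was -0.22. Irf1, which binds the interferon-responsive Ciita promoter, was at 367 and 362 CPM in Con and at 224 and 180.0 CPM in Fat (log2FC -0.86, standard error 0.10, limma adjusted p = 0.00447). Socs1, a feedback inhibitor of interferon gamma signalling, had a log2FC of -1.02 (adjusted p = 0.017), Socs3 one of -0.60 (adjusted p = 0.0298), Irf8 one of -0.48 (adjusted p = 0.00825), Jak2 one of -0.29 (adjusted p = 0.0476) and Irf2 one of -0.27 (adjusted p = 0.037). Without Con replicate 1, Socs1, Socs3, Jak2 and Irf2 were not called (adjusted p = 0.0635, 0.0782, 0.169 and 0.129), and without Fat replicate 2, Socs3, Jak2 and Irf2 were not called (adjusted p = 0.0942, 0.222 and 0.195). Ifngr1 and Ifngr2, the receptor chains, did not pass (log2FC 0.06 with adjusted p = 0.631, and -0.18 with adjusted p = 0.0965), nor did Spi1, the gene of the myeloid factor PU.1 (0.01, adjusted p = 0.973). Ifng itself had 13 and 17 reads in Con and 4 and 4 reads in Fat, below the level at which genes were tested.

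**Figure D3:**
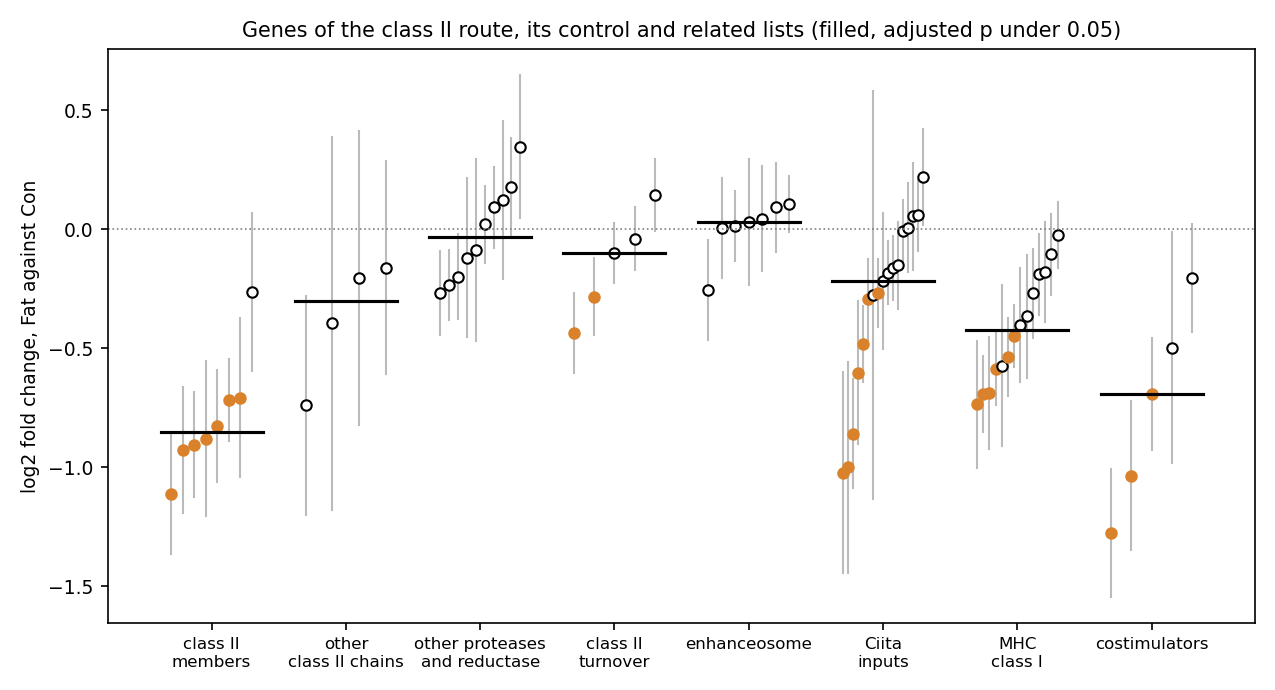
Log2 fold change of Fat against Con (vertical axis) for every tested gene of 8 lists, with 95% intervals as grey lines, the median of each list as a black bar and genes with an adjusted p under 0.05 filled. The members (median -0.85) and the costimulators (-0.69) have the lowest medians, and the enhanceosome genes (0.03) and the other proteases (-0.03) lie around 0.

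MHC class I presentation, the route for peptides made in the cytosol, was compared as the neighbouring route. Of its 14 genes, 6 were called lower and 0 higher by limma (11 lower and 0 higher at an unadjusted p under 0.05), and 8 were not called. Of all genes tested, 5.0% were called lower and 3.99% higher (12.4% and 11.8% unadjusted). The median log2FC of the 14 genes was -0.42. DESeq2 called 10 of them lower, against 5.22% of all genes. Tap1, the peptide transporter, had a log2FC of -0.73 (adjusted p = 0.0115), and the immunoproteasome subunits Psmb10, Psmb9 and Psmb8 had ones of -0.69, -0.69 and -0.59 (adjusted p = 0.00922 at most). Nlrc5, the transactivator of class I genes, was at 150.4 and 122 CPM in Con and 106 and 78.6 CPM in Fat (log2FC -0.57, adjusted p = 0.052), a difference that did not pass the test. The gap between Nlrc5 and Ciita was not tested, and their intervals, -0.91 to -0.24 and -1.36 to -0.86, overlapped. Of 5 costimulators tested, Cd40, Cd86 and Icam1 were called lower (log2FCs -1.27, -1.03 and -0.69, adjusted p = 0.00919 at most) and 0 were called higher (4 lower and 0 higher at an unadjusted p under 0.05).

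Of the members, 5 lie in the class II region of chromosome 17 together with genes of class I processing. From H2-Oa to H2-Eb2, the RefSeq table lists 14 protein-coding genes, and all were tested. Of these, 9 were called lower and 0 higher by limma, against 5.0% and 3.99% of all genes tested. They were the 5 members, already counted above, and 4 of the 9 other genes: Psmb9, Tap1, Psmb8 and Tap2. These 4 lie between H2-DMb1 and H2-Ob and were also counted in the class I list. Tap2, the partner of Tap1, had a log2FC of -0.45 (adjusted p = 0.00574). Brd2, which encodes a widely expressed bromodomain protein and sits next to H2-DMa, was at 237 and 230.1 CPM in Con and at 231 and 230.3 CPM in Fat. Its log2FC was -0.02 (standard error 0.05, adjusted p = 0.886), with an interval of -0.14 to 0.11. The other 4 genes not called were H2-Oa, H2-DMb2, H2-Ob and H2-Eb2, all below 5 CPM. The ends of this region and its neighbours were chosen after their values had been seen.

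**Figure D4:**
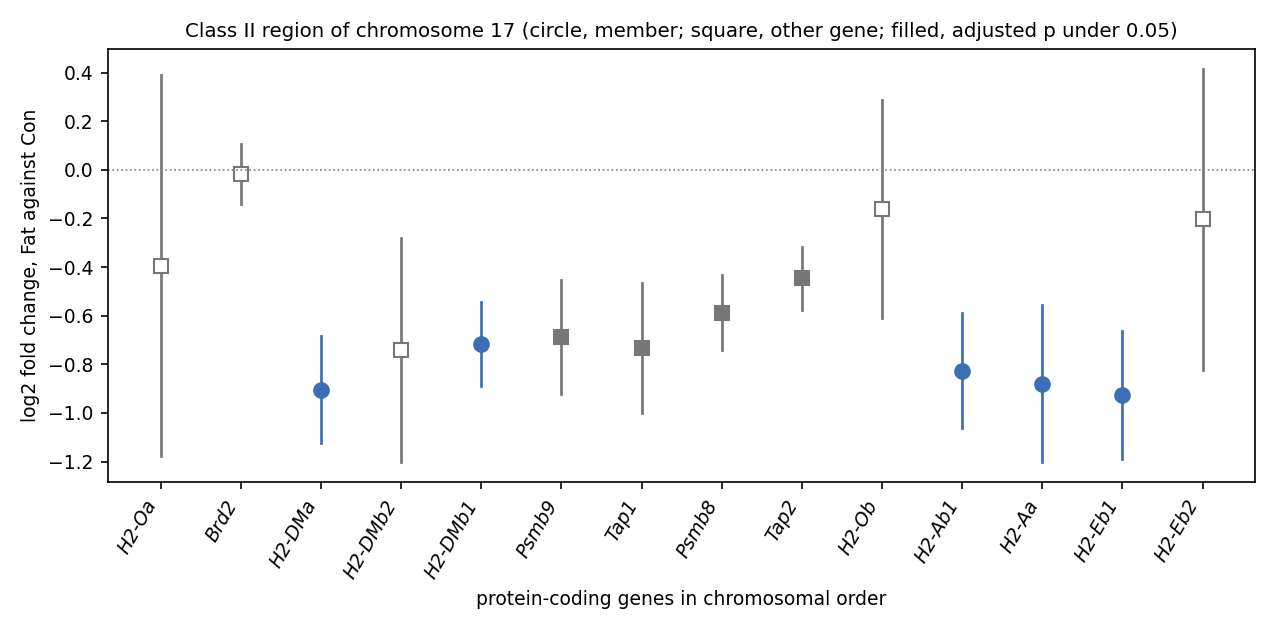
Log2 fold change of Fat against Con with its 95% interval (vertical axis) for the 14 protein-coding genes from H2-Oa to H2-Eb2 in chromosomal order (horizontal axis, not to scale), with members as circles, other genes as squares and genes with an adjusted p under 0.05 filled. The 9 filled genes lie between -0.93 and -0.45, next to Brd2 at -0.02.

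The cultures expressed macrophage markers, and other cells that carry class II were checked by their markers. For the counts below, 5.0% of all genes tested were called lower and 3.99% higher by limma. At an unadjusted p under 0.05, the shares were 12.4% and 11.8%. Of 10 macrophage markers 9 were listed, all with more than 3 reads in every library, and their summed level was 33007 to 34968 CPM in Con and 26164 to 27645 CPM in Fat, most of it Lyz2. Among them Itgam was at 2598 to 2890 CPM over the 4 libraries, and Fcgr1, an interferon-inducible Fc receptor, was 1 of 2 called lower (log2FC -0.88, limma adjusted p = 0.0123), with 4 of the 9 lower at an unadjusted p under 0.05. Of 10 dendritic cell markers all were listed and 6 had more than 3 reads in each library, with sums of 723 to 923 CPM in Con and 748 to 767 CPM in Fat, nearly all of it Itgax, which macrophages also express. Flt3, Xcr1 and Cd209a had at most 3 reads in any library. Of 6 dendritic cell markers tested, Batf3 was called lower by limma (2 lower and 0 higher at an unadjusted p under 0.05). Batf3, a transcription factor of conventional dendritic cells, had 224 and 298 reads in Con and 173 and 207 reads in Fat, or 6.60 and 7.94 CPM against 4.63 and 5.05 CPM (log2FC -0.57, adjusted p = 0.0396). Its call was lost without Con replicate 2, Fat replicate 1 or Fat replicate 2 (adjusted p = 0.152, 0.104 and 0.075). Clec9a, a receptor of cross-presenting dendritic cells, had 530 and 426 reads in Con and 392 and 299 reads in Fat, or 15.6 and 11.4 CPM against 10.5 and 7.29 CPM (log2FC -0.60, adjusted p = 0.116). All 8 B cell markers were listed, 7 with more than 3 reads in every library, and they summed to 28.4 and 29.6 CPM in Con and to 22.8 and 27.0 CPM in Fat, with 0 of 6 tested called by limma (0 at an unadjusted p under 0.05). The T and NK cell markers, 9 of 10 listed and all with more than 3 reads, summed to 20.7 and 23.8 CPM in Con and to 15.3 and 15.9 CPM in Fat, with 0 of 6 called (4 lower at an unadjusted p under 0.05). Neutrophil markers, 7 of 8 listed, summed to 360.4 and 411 CPM in Con and to 352 and 351 CPM in Fat, with 0 of 7 called by limma (3 lower at an unadjusted p under 0.05). The sum of the adipose stromal and vessel markers overlapped between the media, at 670.1 and 701 CPM in Con and 563 and 718 CPM in Fat. Of 7 tested, 1 was called lower and 0 higher by limma (3 lower and 0 higher at an unadjusted p under 0.05). The called gene was Dcn (log2FC -0.82, limma adjusted p = 0.0358), which DESeq2 did not call (adjusted p = 0.0825). Of the 10 adipocyte markers, 2 had more than 3 reads in every library. Adipoq and Lep were at 0 reads in Con, while Fat replicates 1 and 2 held 28 and 14 reads of Adipoq and 30 and 18 of Lep, and 2 of 4 tested markers were called higher. The list's sum of 7395 to 8909 CPM was nearly all Lpl, which macrophages express. The macrophage, B cell, T and NK cell and neutrophil sums were lower in both Fat libraries, as the members were. The macrophage sum followed Lyz2, at 28721 and 26819 CPM in Con and 21516 and 20347 CPM in Fat (limma adjusted p = 0.209). Cd68, Itgam and Cd163 had log2FCs above 0 (0.09, 0.07 and 0.58), and none of these 3 was called. Both Fat libraries lay below both Con libraries for 5 of the 9 macrophage markers and above them for 1. Of all genes tested, 26.2% lay below and 29.4% above. Of the 6 dendritic cell markers tested, 2 (Batf3 and Clec9a) were lower in both Fat libraries than in both Con libraries, and 0 were higher. The sum of that list overlapped between the media. The part of these markers in the result was not tested. In bulk RNA, fewer cells of a type and less RNA per cell cannot be told apart.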

How the data were processed

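RNA was sequenced by the authors as single reads of 75 bases from stranded libraries. They deposited the values as CPM (reads over library size, with a further factor per library) and as TPM, also scaled for gene length. The submitters' processing notes name the build GRCm39, and the aligner, counter and annotation are not given in the sources used here. The authors name edgeR for their comparison. Libraries were grouped by their titles. Whole reads were recovered from the deposited CPM for 100% of values (within 0.01 read for counts up to 10000, in proportion above), and a single read equalled 0.0244 to 0.0295 CPM, which sets counting error only.

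Fat was compared with Con by limma 3.58.1 (R 4.3.3, mean-variance trend, two-sided, Benjamini-Hochberg) on log2(CPM + 0.1) for the 12470 genes that reached 0.5 CPM in 2 or more libraries, called at an adjusted p under 0.05. edgeR 4.0.16 and DESeq2 1.42.0 were run on recovered reads. The tests were run on counts simulated for 12470 genes, with the spread of every gene set on the trend with its mean. There limma found 93% of the genes changed 1 log2 unit, with 15 false calls among the unchanged genes. Because limma with the trend assumes such a spread, this cannot show how it performs on genes whose spread departs from the trend. Shared sequence was searched with BWA 0.7.19 at steps of 5 bases.

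The members and lists were chosen with earlier results of these data known. Named were all members, up to 6 genes of each class II list and up to 4 of the class I and costimulator lists (called genes first, by size of change), and the 5 genes nearest in profile. Irf2, Ifngr1, Ifngr2, Spi1, Ifng, Nlrc5, Brd2, Tap2, Rfxank, Sppl2a, Ifi30 and the named cell markers were added after their values were seen. Some genes of these lists are not reported here by name.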

Additional observations from a re-analysis of the deposited data

How the results depend on the processing

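For each of the 8 members, all 13 alternatives kept the log2 fold change below 0: 94 of these 104 results kept their side of the threshold, 9 no longer passed it (7 of them without the mean-variance trend and 2 more for Cd74) and 1 newly passed it (Ctss with DESeq2). No mean-variance trend left 0 members, 0 other class II pathway genes, 0 class I genes and 31 genes in all called, against 7, 2, 6 and 1122. The cause was not tested. Blocking on the replicate number gave 2520 called genes (9.96% of those tested lower in Fat), 5 other class II pathway genes, 10 class I genes and 7 members. Deviations of libraries sharing a number correlated at 0.20 across genes, and the labels give no shared mouse or batch behind a number. No filter on low values left 1 other class II pathway gene called, and DESeq2 called 10 class I genes lower. With each library left out in turn, between 529 (without Fat replicate 2; 666 without Con replicate 1) and 1131 genes, and between 1 and 2 other class II pathway genes, were called. Where 1 library of a medium was left, it was assumed to vary as the other medium's libraries do. With 2 libraries a medium, the spread of a gene rests largely on that of all genes.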
